A study of Homo sapiens with 4 samples.

Results

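The redox defence genes described here are 44 gene symbols that cover the globin CYGB, the NRF2 regulators, haem and quinone enzymes, the glutathione and thioredoxin systems, peroxide and superoxide removal, NADPH supply, ferritin and conjugate export. They were chosen by symbol and function with earlier results of the same comparison known, and CYGB was taken in because it was higher in the CBX7 libraries. The symbols matched 45 of the 60623 rows of the table, because SOD2 has 2 rows. Of these 45 rows, 44 passed the filter on low counts and were tested, and GPX2 did not pass it. Since the choice used this comparison, the differences between the groups are given as a description and not as evidence about the genes.

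RNA was sequenced from T24 cells, an established human bladder carcinoma line grown in RPMI with foetal calf serum, to ask which transcripts differ when CBX7, a chromobox subunit of the Polycomb repressive complex PRC1, is overexpressed. The design has 2 libraries from control cells and 2 from cells that overexpress CBX7, and the labels number them 1 and 2 in each group. The CBX7 coding sequence had been placed in a FLAG-tagged expression plasmid to make stable lines. The sources used here do not give the plasmid carried by the control cells, or whether a line was 1 clone or a pool, and nothing says that the libraries came from separate cultures, so p-values measure only the spread between these libraries. For a single gene with 2 libraries against 2, an exact two-sided permutation test cannot go below a p of 0.333.

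Cells meet reactive oxygen with a layered system. Superoxide dismutases turn superoxide into hydrogen peroxide, which catalase splits into water and oxygen. Peroxiredoxins and glutathione peroxidases reduce the peroxide with electrons that thioredoxin and glutathione draw from NADPH. The transcription factor NRF2, held at a low level by KEAP1 and paired with small MAF proteins, binds the antioxidant response element in front of many of these genes. Cytoglobin, the product of CYGB, is a haem protein of the globin family that is found in many tissues, outside red cells, and binds oxygen and nitric oxide.

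The core of the antioxidant response element is shown because it is the sequence through which NRF2 acts on many of these genes. It was searched as TGACNNNGC on both strands, in the 250 bases before the transcription start of RefSeq promoter windows (GRCh38.p14). Bases further from the start were not searched, so a gene without a match here may have the element elsewhere. Windows were matched for 32 of the 44 symbols, and 12 symbols, CYGB among them, had none. The letters were found in 9 of 46 windows of these genes (19.6%), which belong to 8 symbols, and in 11.2% of 22198 windows of protein-coding genes. The match nearest the start is given for each of the 8 genes, 5′ to 3′ on the strand of the gene, with the matched letters in capitals. A match on the opposite strand appears as its reverse complement.
GCLM, chr1:93909446-93909474, minus strand: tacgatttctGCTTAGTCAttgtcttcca
GPX2, chr14:64942849-64942877, minus strand: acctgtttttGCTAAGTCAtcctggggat
GSTA4, chr6:52995285-52995303, minus strand: ccgggaccgcTGACCTGGC
GSTP1, chr11:67583736-67583764, plus strand: gccggcgccgTGACTCAGCactggggcgg
KEAP1, chr19:10502784-10502812, minus strand: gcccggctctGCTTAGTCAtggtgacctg
ME1, chr6:83431170-83431198, minus strand: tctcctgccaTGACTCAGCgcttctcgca
PGD, chr1:10398853-10398881, plus strand: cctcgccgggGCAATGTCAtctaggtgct
TXNRD1, chr12:104215670-104215698, plus strand: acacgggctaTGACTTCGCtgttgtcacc

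Several of the enzymes carry selenocysteine in the active site, which is encoded by a TGA codon that is read through instead of ending translation. GENCODE 29 (GRCh38) marks this codon in 6 of the genes, and each is printed in capitals within its stretch of coding sequence, with the position of the codon. It was codon 49 of 203 in GPX1, 40 of 190 in GPX2, 73 of 226 in GPX3 and 73 of 197 in GPX4. In both thioredoxin reductases it was the codon before the last, 498 of 499 in TXNRD1 and 523 of 524 in TXNRD2. GPX8 had no such codon in the annotation.
GPX1, chr3:49358132-49358134, minus strand: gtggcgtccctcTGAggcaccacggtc
GPX2, chr14:64942607-64942609, minus strand: gtggcttcgctcTGAggcacaaccacc
GPX3, chr5:151025469-151025471, plus strand: gtggccagctacTGAggcctgacgggc
GPX4, chr19:1105403-1105405, plus strand: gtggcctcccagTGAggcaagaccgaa
TXNRD1, chr12:104348413-104348415, plus strand: caggctggctgcTGAggt
TXNRD2, chr22:19877111-19877113, minus strand: gtgacaggctgcTGAggg

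The 4 libraries held between 20800910 and 25135488 expected counts, and the redox genes took between 0.927% and 1.06% of them. A count of 3, taken as the limit of detection, corresponded to 0.124 to 0.143 CPM, counts scaled to the size of the library by the TMM method. On the TPM scale, transcript abundance corrected for gene length, CBX7 was at 4.98 and 3.73 in control replicates 1 and 2, and at 610.1 and 607 in CBX7 replicates 1 and 2. The epithelial keratins KRT7, KRT8 and KRT18 were at 853 to 1465 TPM, and the urothelial factors PPARG and FOXA1 at 6.78 to 25.9 TPM. CDH1, the uroplakins, KRT5, KRT13, KRT20 and TP63 were at or near 0, and GATA3 was low at 3, 4, 14 and 22 counts in control replicates 1 and 2 and CBX7 replicates 1 and 2. The fibroblast gene DCN and the leukocyte gene PTPRC were near 0, while COL1A1 had 60, 54, 87 and 106 counts and CD68 was at 11.5 and 9.45 TPM in the controls against 6.29 and 6.99 TPM in the CBX7 libraries. KRT19 was at 7.64 and 6.64 TPM in the controls and 17.3 and 15.1 TPM in the CBX7 libraries. Of 13 marker genes tested, 7 (KRT18, KRT19, FOXA1, GATA3, COL1A1, COL3A1 and PDGFRB) were higher and 1 (CD68) lower in both CBX7 libraries on the CPM scale, against 15.4% and 14.8% of all genes tested. On the TPM scale KRT18, KRT19, PDGFRB and CD68 were still apart, while FOXA1, GATA3, COL1A1 and COL3A1 overlapped. KRT8 was higher in both CBX7 libraries on the TPM scale alone. In edgeR 0 had an adjusted p under 0.05, while 4 of the 13 had an unadjusted p under 0.05, against 4.74% of all genes. Their part in the values of the redox genes was not tested. The erythroid genes HBB, HBA1, HBA2, ALAS2, EPB42, KLF1 and AHSP, which would mark red cell lineage, each had at most 3 counts in a library, but the embryonic globin HBE1, named after its values were seen, had 37.26, 26, 29.52 and 21.6 counts, with overlapping groups. The libraries numbered 1 differed from those numbered 2 in a trend with gene length, which is described with the values it touches.

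Among the 44 rows tested, control levels spanned from 0.55 TPM (ABCC2) to 3137 TPM (FTH1). Of the 44 rows tested, 21 had a mean over the 4 libraries of at least 100 TPM, 19 lay from 5 to under 100 TPM, and 4 lay under 5 TPM. The iron store FTH1, the ferritin heavy chain, led with a mean of 2820.1 TPM and ranked 57 of 14862 genes tested. It was followed by the light chain FTL at 1355 TPM, the peroxiredoxin PRDX1 at 978 TPM and thioredoxin TXN at 719.6 TPM. The order of FTH1, FTL, PRDX1 and TXN was the same in each library, since their ranges did not meet. TKT at 667 TPM and GPX1 at 609.8 TPM came next, but their ranges over the libraries (627 to 711 TPM and 561 to 721 TPM) overlapped each other and that of TXN (674 to 787 TPM). At the lower end were CYGB with a mean of 2.33 TPM, GPX3 with 2.18 TPM, GSTA4 with 1.16 TPM and ABCC2 with 0.645 TPM.

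**Figure D1:**
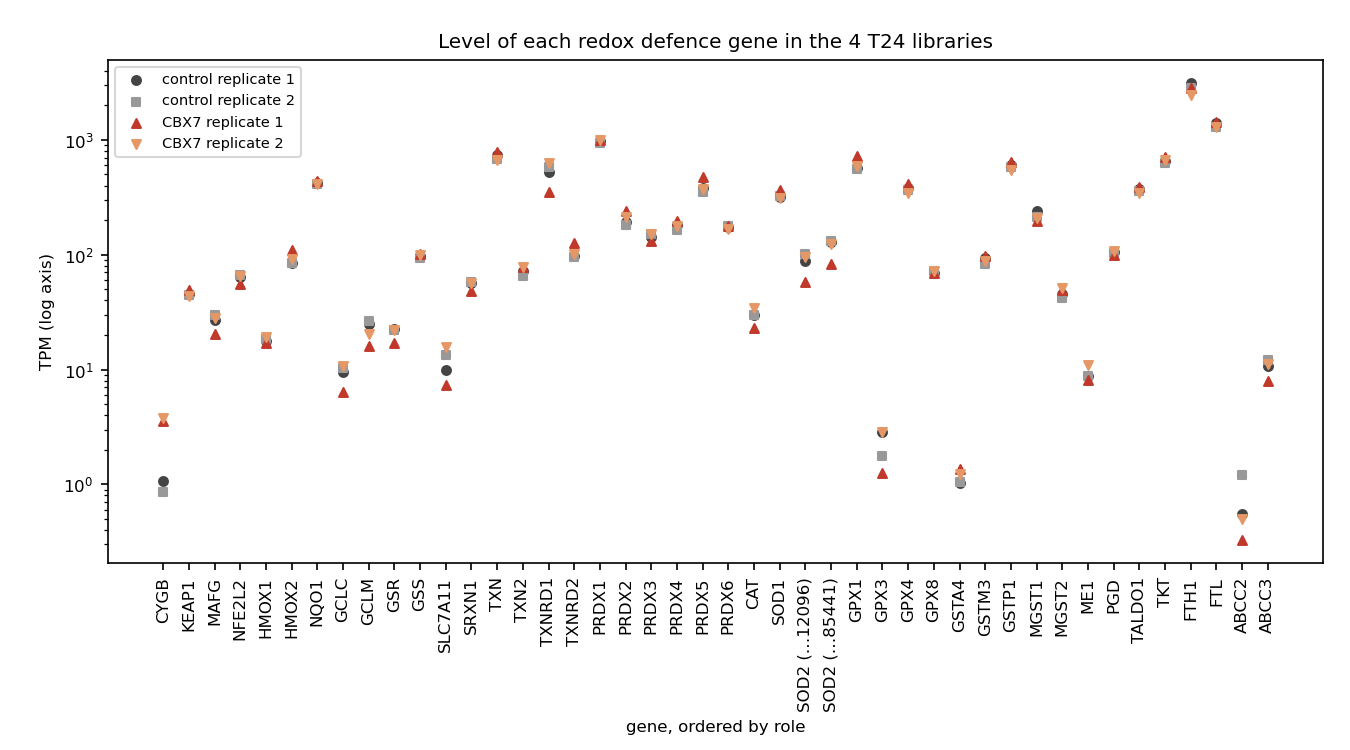
TPM on a log axis for each of the 44 rows tested, ordered by role, with 1 point per library (control circles and squares, CBX7 triangles). FTH1 is the most abundant at 2464 to 3137 TPM, ABCC2 the least at 0.330 to 1.20 TPM, and CYGB is the gene with the widest gap between the groups.

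CYGB was the one redox gene with a large difference. It had 25.9 and 17 expected counts in control replicates 1 and 2, and 138.15 and 104.97 in CBX7 replicates 1 and 2. After TMM scaling these were 1.09 and 0.810 CPM in the controls against 5.71 and 4.70 CPM in the CBX7 libraries. Both CBX7 libraries lay well above both controls, and all 4 libraries were above the limit of detection. The log2 fold change was 2.44 (standard error 0.28, n = 2 per group), which ranked 24 among 14862 genes by size. The mean CPM was 5.48-fold higher in the CBX7 libraries. In RNA from whole cultures, a higher level in each cell and more cells with the transcript cannot be told apart.

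The difference in CYGB was nearly the same in each pair of same-numbered libraries, with a log2 ratio of 2.34 for the libraries numbered 1 and 2.47 for those numbered 2. On the TPM scale CYGB was at 1.07 and 0.86 TPM in the controls and 3.57 and 3.81 TPM in the CBX7 libraries, a 3.82-fold difference of the means. The smaller fold in TPM goes with a difference in the transcript length that counts and TPM together imply, 1636 and 1594 bases in the controls against 2192 and 2112 bases in the CBX7 libraries. Whether this reflects other transcript forms was not tested. In GENCODE 29 CYGB lies at chr17:76527356-76551175 on the minus strand, and its exons share 248 bases with PRCD on the opposite strand and 302 bases with AC015802.4 on its own strand. PRCD had at most 4.03 counts and AC015802.4 at most 4 counts in any library.

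No other redox gene came near this size. The remaining 43 rows tested had log2 fold changes from -0.64 in ABCC2 to 0.45 in GSTA4, and 33 of them were under 0.25 in size. None of the 44 rows had an adjusted p under 0.05 in edgeR's quasi-likelihood test (Benjamini-Hochberg over 14862 genes), against 0.0202% of all genes tested (3 genes), and CYGB had the lowest, 0.224. At an unadjusted p under 0.05, CYGB was the 1 row of 44 (2.27%), against 4.74% of all genes. The DESeq2 Wald test gave 1 row of 44, CYGB, at an adjusted p under 0.05, against 0.451% of all genes. A fold change of at least 0.5 on the log2 scale was seen in 2 rows, CYGB and ABCC2 (4.55%), against 9.67% of all genes. As the genes were chosen with this comparison known, nothing is read from these shares.

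**Figure D2:**
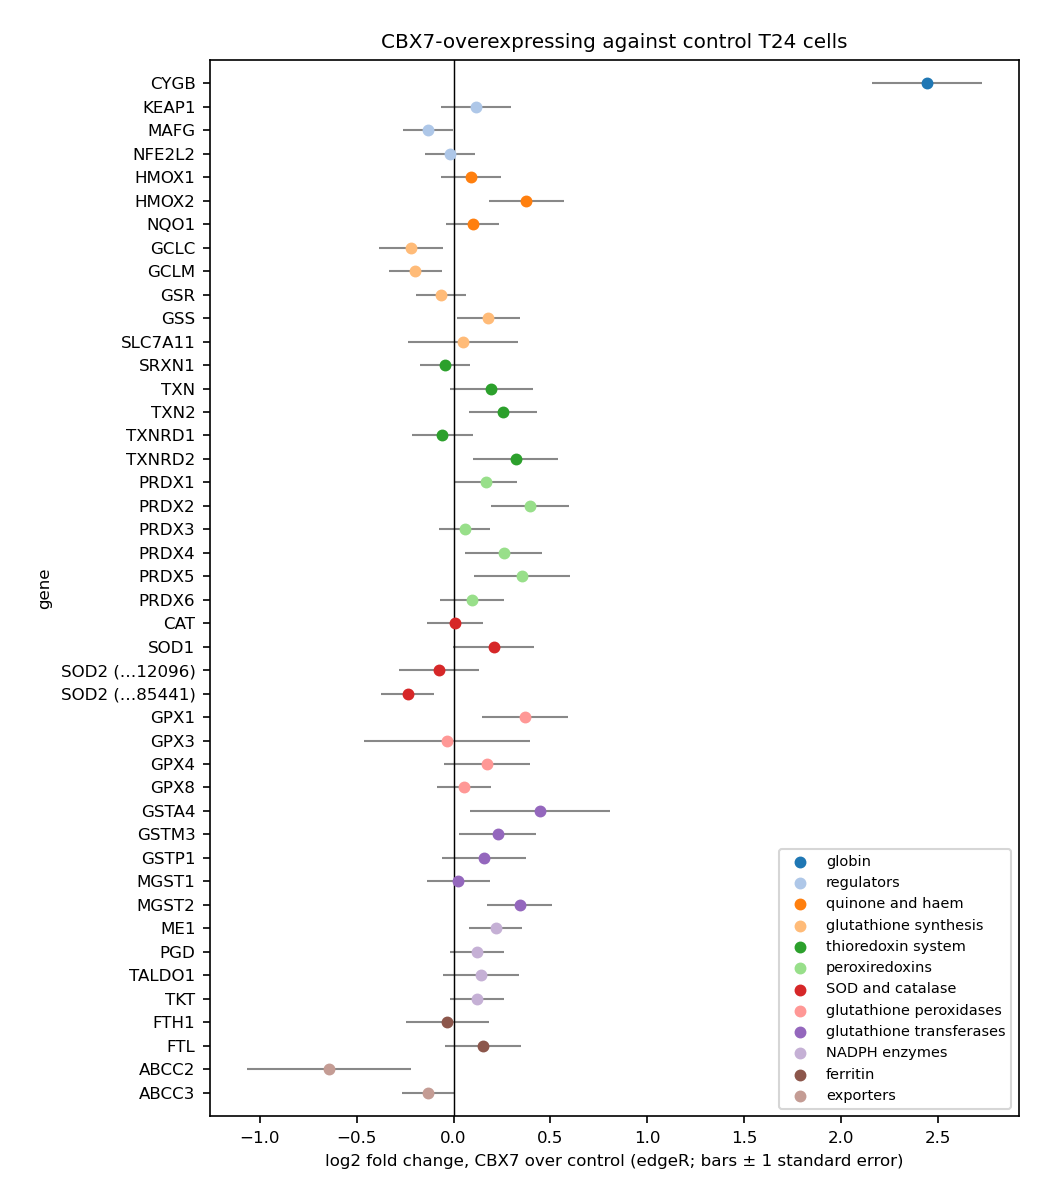
Log2 fold change of CBX7 over control for the 44 rows tested, from the edgeR fit, with bars of 1 standard error and colours for the roles. CYGB stands at 2.44, and the other 43 rows lie between -0.64 and 0.45.

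How often the groups separated depended on the scale. On the CPM scale both CBX7 libraries were above both controls in 6 rows (CYGB, GSTA4, HMOX2, ME1, MGST2 and PRDX2; 13.6%), against 15.4% of all genes tested. Both were below in 6 rows (ABCC3, GCLC, GCLM, GSR, MAFG and the SOD2 row ENSG00000285441; 13.6%), against 14.8%. On the TPM scale 11 of 44 rows were above, against 12.2% of all genes, and 6 were below (13.6%), against 17.4%. The rows above on both scales were CYGB, GSTA4, HMOX2, MGST2 and PRDX2, and those below on both were GCLM, GSR and the SOD2 row ENSG00000285441. Rows apart on the TPM scale alone were GPX1, GSS, PRDX1, TKT, TXN2 and TXNRD2 above, and ABCC2, MGST1 and SRXN1 below. In the paragraphs on each role, 4 values in a row are in the order control replicates 1 and 2, then CBX7 replicates 1 and 2, and the differences are log2 fold changes with their standard errors.

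**Figure D3:**
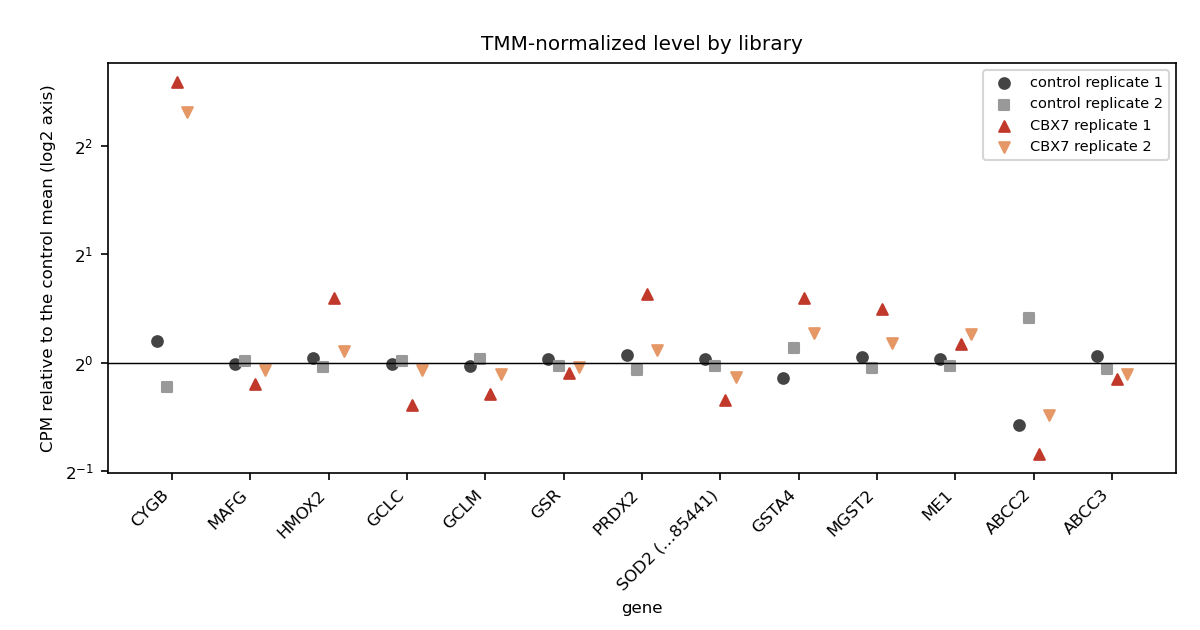
TMM-normalized CPM of each library divided by the control mean, on a log2 axis, for CYGB, the other rows whose groups did not overlap, and ABCC2. The 2 CBX7 libraries of CYGB lie far above the controls, while the other rows lie much nearer the control mean.

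The regulators differed little. NFE2L2, which encodes NRF2, was at 110.2, 106, 111 and 102 CPM, and its difference was -0.02 ± 0.13. The groups overlapped. KEAP1, the adaptor that delivers NRF2 to degradation, was between 70.4 and 93.6 CPM with a difference of 0.12 ± 0.18, and CBX7 replicate 1 alone lay above the other libraries. MAFG, a small MAF partner of NRF2, was at 102, 103, 89.3 and 97.7 CPM. Both CBX7 libraries were lower than both controls by a small margin, and the difference was -0.13 ± 0.13. On the TPM scale MAFG overlapped, with 26.9 and 29.6 TPM in the controls and 20.4 and 28.1 TPM in the CBX7 libraries.

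Among the quinone and haem enzymes, NQO1, a quinone reductase that is a widely used read-out of NRF2, was abundant at 411 to 441 TPM in all 4 libraries. Its CPM values overlapped and its difference was 0.10 ± 0.14. HMOX1, the inducible haem oxygenase that opens haem to biliverdin, was much less abundant at 17.1 to 19.0 TPM, and its difference was 0.09 ± 0.15. The constitutive haem oxygenase HMOX2 was at 72.8, 68.8, 107 and 76.4 CPM, a difference of 0.37 ± 0.19. CBX7 replicate 1 stood apart, and CBX7 replicate 2 was just above the higher control. HMOX2 was thus more abundant than HMOX1, at 85.2 to 109.6 TPM. Its exons share 228 bases with NMRAL1 on the opposite strand, and the sources used here do not say whether counting used strand.

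The genes of cystine uptake and glutathione supply had differences on both sides of 0. The exchanger SLC7A11, which brings in cystine, was at 72.8, 95.2, 64.1 and 109 CPM. Here the libraries numbered 2 were the high ones in both groups, and the difference was 0.05 ± 0.28. GCLC, the catalytic subunit of glutamate-cysteine ligase, was at 20.3, 20.7, 15.7 and 19.6 CPM, a difference of -0.22 ± 0.16. The modifier subunit GCLM was at 70.0, 73.0, 58.4 and 66.3 CPM, a difference of -0.20 ± 0.14. For both subunits the CBX7 libraries were below the controls on the CPM scale, CBX7 replicate 1 more so. On the TPM scale GCLC overlapped, with 9.43 and 10.4 TPM in the controls and 6.38 and 10.8 TPM in the CBX7 libraries. GSR, which reduces oxidized glutathione, was at 48.2, 46.2, 44.2 and 45.9 CPM, and the nearest libraries of the groups were less than 1 CPM apart (-0.07 ± 0.13). GSS, which completes glutathione, was between 107 and 140 CPM with a difference of 0.18 ± 0.16, and its groups overlapped.

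In the thioredoxin system no gene separated the groups on the CPM scale, while on the TPM scale TXN2 and TXNRD2 were above and SRXN1 below the controls in both CBX7 libraries. Cytosolic thioredoxin TXN was at 674 to 787 TPM and mitochondrial TXN2 at 65.3 to 78.6 TPM, with differences of 0.20 ± 0.21 and 0.26 ± 0.18. The cytosolic reductase TXNRD1, a selenoprotein, was at 1338, 1398, 1157 and 1472 CPM. CBX7 replicates 1 and 2 were the lowest and the highest of the 4 libraries, and the difference was -0.06 ± 0.16. The mitochondrial reductase TXNRD2 was at 82.7, 78.3, 121 and 80.0 CPM, so that CBX7 replicate 1 alone was high (0.32 ± 0.22). SRXN1, the sulfiredoxin that restores over-oxidized peroxiredoxins, was between 103 and 111 CPM, with a difference of -0.04 ± 0.13.

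All 6 peroxiredoxins, the thiol enzymes that reduce peroxides, had differences above 0, from 0.06 in PRDX3 to 0.40 in PRDX2, and none passed the test. PRDX2 was at 102, 92.6, 150.5 and 105 CPM, a difference of 0.40 ± 0.20. CBX7 replicate 1 was the high library and CBX7 replicate 2 was just above the higher control. PRDX5 had the same shape without separation, at 169, 151, 253 and 155 CPM (0.36 ± 0.25). The most abundant was PRDX1, at 943 to 993 TPM, with a difference of 0.17 ± 0.16. PRDX4 of the endoplasmic reticulum, at 165 to 198 TPM, had 0.26 ± 0.20, and PRDX6, at 167 to 177 TPM, had 0.10 ± 0.17. In the libraries numbered 1 the log2 ratios of the 6 genes were from 0.15 to 0.59, and in those numbered 2 they were from -0.09 to 0.18. With a correction of every library for gene length, the 6 differences were from -0.04 to 0.22, so they were not all above 0.

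Of the genes that remove superoxide, the cytosolic dismutase SOD1 was at 178, 176, 244 and 165 CPM. CBX7 replicate 1 was the highest library and CBX7 replicate 2 the lowest (0.21 ± 0.21). The mitochondrial dismutase SOD2 was split over 2 rows whose exons share 845 bases. The row ENSG00000285441 was at 372, 357, 286 and 333 CPM, below the controls in both CBX7 libraries, a difference of -0.24 ± 0.14. The row ENSG00000112096 was at 78.3, 89.6, 65.4 and 93.8 CPM and overlapped (-0.08 ± 0.21). How reads were divided between these rows is uncertain, as every count in both was not whole, and their sum was 451, 446, 352 and 427 CPM. Catalase, CAT, was at 22.9 to 34.5 TPM, with CBX7 replicates 1 and 2 at the low and the high end (0.01 ± 0.14).

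The glutathione peroxidases ranged from abundant to undetected. GPX1, the cytosolic form, was at 285, 272, 437 and 283 CPM, a difference of 0.37 ± 0.22. CBX7 replicate 1 was far above the rest, while CBX7 replicate 2 lay between the controls. GPX4, which reduces lipid peroxides, was at 344 to 410 TPM with a difference of 0.17 ± 0.22. GPX8 of the endoplasmic reticulum was at 69.6 to 72.5 TPM with 0.05 ± 0.14. GPX3, the secreted form, had 27, 16, 17 and 26 counts, too few for more than a wide estimate (-0.03 ± 0.43). GPX2, the form of the gut epithelium, had 3 counts in control replicate 1 and 0 in the other 3 libraries, at or under the limit of detection throughout.

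All 5 glutathione transferases had differences above 0, and none passed the test. GSTP1, the dominant cytosolic transferase here, was at 541 to 645 TPM with 0.16 ± 0.22. MGST2, a microsomal transferase that also makes leukotriene C4, was at 16.7, 15.5, 22.6 and 18.2 CPM, a difference of 0.34 ± 0.17. Both CBX7 libraries were above both controls. GSTA4, which acts on the lipid aldehyde 4-hydroxynonenal, had 16, 17, 27 and 20 counts (0.45 ± 0.36). GSTM3 was between 33.8 and 49.2 CPM with 0.23 ± 0.20, and MGST1 between 92.0 and 116 CPM with 0.02 ± 0.16. After the correction for gene length the 5 differences were from -0.14 to 0.31, so again not all were above 0.

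The NADPH enzymes differed little from each other. TKT and TALDO1 of the pentose phosphate pathway had differences of 0.12 ± 0.14 and 0.14 ± 0.20, at 627 to 711 TPM and 345 to 389 TPM. PGD, which yields NADPH in the same pathway, had 0.12 ± 0.14, at 100.4 to 108 TPM. Malic enzyme ME1 was less abundant, at 21.4, 20.4, 23.5 and 25.1 CPM. Both CBX7 libraries were above both controls, here with CBX7 replicate 2 the higher, and the difference was 0.22 ± 0.13. On the TPM scale ME1 overlapped, because CBX7 replicate 1 was lowest at 8.14 TPM.

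The ferritin chains, which store iron, had differences of -0.03 ± 0.21 in FTH1 and 0.15 ± 0.19 in FTL. FTH1 was at 1892, 1650, 2069 and 1397 CPM, with the CBX7 libraries at both extremes. The exporters of conjugates both had differences below 0. ABCC3 was at 26.2, 24.1, 22.6 and 23.4 CPM (-0.13 ± 0.13), with both CBX7 libraries below both controls and less than 1 CPM between the nearest libraries of the groups. ABCC2 had 32, 56, 27 and 32 counts, which is 1.34, 2.67, 1.12 and 1.43 CPM (-0.64 ± 0.42). Control replicate 2 was the high library, and control replicate 1 lay between the CBX7 libraries, so the groups overlapped. The difference in ABCC2 was -0.076 without control replicate 2 and -1.07 without control replicate 1.

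The 44 rows leaned to positive differences, 31 above and 13 below 0 with a median of 0.12, while over all genes tested the median was 0.0017. This lean was not shared by both pairs of libraries. In the libraries numbered 1 the median log2 ratio of CBX7 over control was 0.21 and 26 rows had a ratio of at least 0.25 in size. In those numbered 2 the median was 0.0014 and 4 rows reached that size. The ratio had opposite signs in the 2 pairs in 19 rows.

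Gene length moved with these ratios. The redox genes were short, with a median of 1761.5 bases in the table against 2867 bases over all genes tested, and 34 of 44 lay under that median. Across the 44 rows the Spearman correlation of length with the log2 ratio was -0.64 in the libraries numbered 1 and 0.02 in those numbered 2, and across all genes tested it was -0.48 and 0.03. Between the 2 controls the same correlation was -0.57 (replicate 1 over 2), and between the 2 CBX7 libraries it was -0.72, against -0.33 and -0.57 across all genes tested. These are correlations across genes of single libraries, and genes are not independent replicates. With the length correction the median difference of the 44 rows was 0.01, with 22 above and 22 below 0, and CYGB was at 2.27. The part of library preparation in these differences was not tested.

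**Figure D4:**
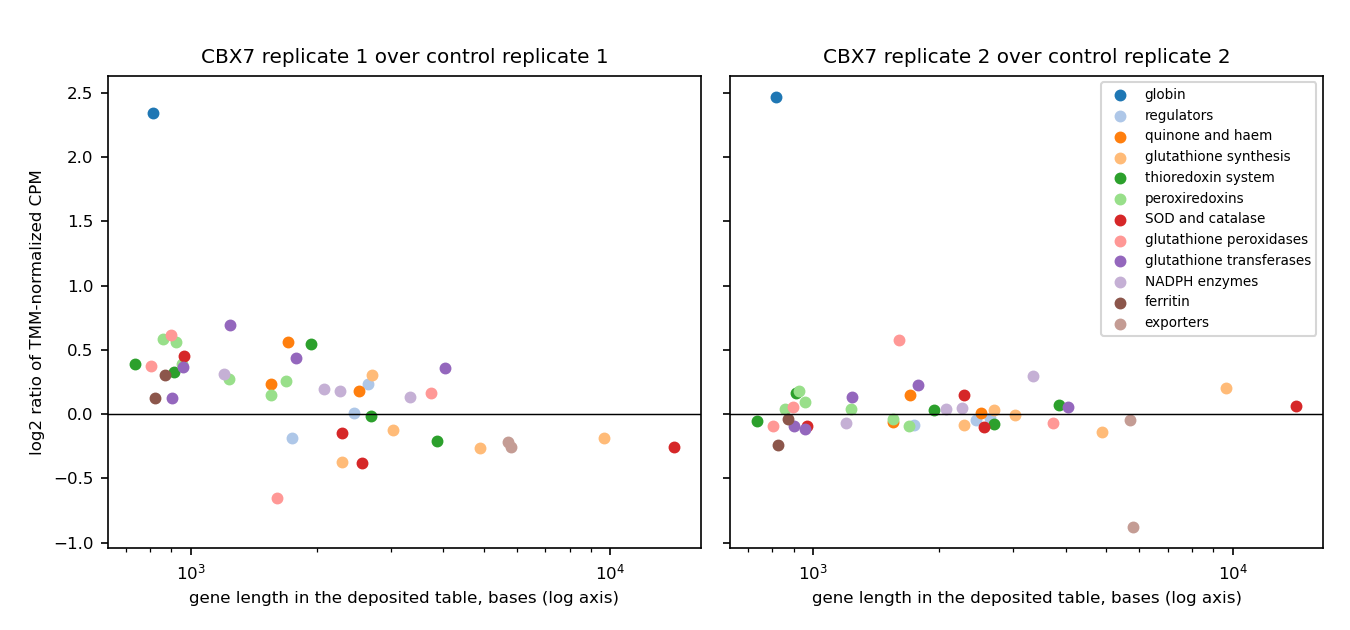
Log2 ratio of CBX7 over control CPM against gene length (log axis) for the 44 rows tested, for the libraries numbered 1 at left and 2 at right, coloured by role. At left the shorter genes have the higher ratios, at right the points scatter about 0, and CYGB is high in both panels at 2.34 and 2.47.

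The number of redox genes called differed with the CBX7 library left out. Without CBX7 replicate 2, so that CBX7 replicate 1 stood alone against the controls and was assumed to vary like them, 28 of 44 rows had an adjusted p under 0.05 in the edgeR test (63.6%), against 35.5% of all genes. Without CBX7 replicate 1 the count was 3, CYGB, FTH1 and SLC7A11 (6.82%), against 2.59% of all genes. All 3 were also among the 28, but FTH1 and SLC7A11 had opposite signs in the 2 fits. FTH1 was at 0.22 without CBX7 replicate 2 and -0.34 without CBX7 replicate 1, and SLC7A11 at -0.39 and 0.39. The log2 fold change of CYGB was 2.25 to 2.67 over the 4 fits that each left out a library.

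A wider list of 109 redox symbols, which holds further glutathione, thioredoxin, haem, iron, NADPH, globin, oxidant-producing and NRF2-pathway genes, gave a similar picture. It matched 109 rows for 108 symbols, of which 80 rows were tested and 0 had an adjusted p under 0.05 in edgeR (0 also in the DESeq2 Wald test), against 0.0202% of all genes, while 5 had an unadjusted p under 0.05 (6.25%, 3 higher and 2 lower), against 4.74% of all genes. Their median log2 fold change was 0.08, with 52 above and 28 below 0. Among genes averaging at least 50 counts whose groups did not overlap, the 3 with the largest difference were BACH2, GGT7 and OPLAH. Under that count, SLC40A1, the iron exporter ferroportin, named after its values were seen, had a larger difference at 32, 29, 12 and 13 counts (-1.33 ± 0.35, adjusted p = 0.675 in edgeR's test). BACH2, a repressor that competes for sites bound by NRF2 and small MAF proteins, had 72, 74, 25 and 47 counts, lower in both CBX7 libraries (-1.06 ± 0.39, adjusted p = 0.951 in edgeR's test). GGT7, of the gamma-glutamyltransferase family, was at 9.81, 8.86, 14.3 and 13.4 CPM (0.57 ± 0.15, adjusted p = 0.713), and OPLAH, the oxoprolinase of the glutathione cycle, at 25.9, 21.9, 34.0 and 31.7 CPM (0.46 ± 0.15, adjusted p = 0.905). Both were higher in each CBX7 library than in either control, and neither passed the test.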

How the data were processed

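RNA-seq of 4 T24 libraries was used, 2 control and 2 CBX7, grouped and numbered by the labels. The authors deposited for each gene and library an estimated count that need not be whole (88.2% to 88.9% of values were whole within 0.005), a TPM value, which is scaled by gene length and library total, and the gene length. The table also holds the authors' own fold, log2 fold change, p-value, adjusted p-value and calls, which were not used. The submitters' processing notes name cutadapt 1.9.1, HISAT2 2.0.1, HTSeq 0.6.1, DESeq2 and build hg19 without a role. HTSeq writes whole counts by default, so the counter behind the table is not given in the sources used here. The table holds no coordinates: positions are from GENCODE 29 (GRCh38) and RefSeq (GRCh38.p14), and 96.5% of gene identifiers were found in GENCODE 29.

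Counts were rounded and tested with edgeR 4.0.16 in R 4.3.3 (filterByExpr, TMM, glmQLFit in its older form, glmQLFTest, condition alone, Benjamini-Hochberg over 14862 genes). The standard error, printed after ±, was taken as the size of the log2 fold change over the square root of the F statistic. CPM are TMM-normalized. Replicates differed by more than sampling noise (chi-square per degree of freedom 6.06 between controls and 54.7 between CBX7 libraries). Scripts were tested on simulated counts. Alternatives were DESeq2 1.42.0 size factors, upper-quartile scaling, a minimum of 10 counts in all 4 libraries, no filter, the DESeq2 Wald test, the newer quasi-likelihood form, the replicate number as a block, a per-library lowess correction for gene length (span 0.3), the block with that correction, log2(TPM + 1) for single genes, and each library left out. The limit of 3 counts was fixed for every library, whatever its depth (20800910 to 25135488 counts), and covers counting error only.

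The genes, the wider list and the markers were chosen with earlier results of these data known. Every redox gene is named. All libraries' values are given for CYGB and for rows whose groups did not overlap on the CPM scale. The same holds for rows with a log2 fold change of at least 0.5 in size. For others they are given where the libraries stood apart. Of the wider list, genes past an adjusted p of 0.05 were to be named, otherwise the 3 with the largest difference among those averaging 50 counts or more with separate groups. Log2 ratios of same-numbered libraries use a pseudocount of 0.05 CPM. This was chosen after the values were seen, in place of 0.5 CPM. The motif and codon searches, the counts on the TPM scale and the shares of calls with a library left out were also added after seeing the data.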

Additional observations from a re-analysis of the deposited data

How the results depend on the processing

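The log2 fold change of CYGB kept its sign in each fit, from 2.27 to 2.45 with all 4 libraries and 2.25 to 2.67 with a library left out, and was 1.26 as a difference of log2(TPM + 1), which understates low genes. Its call did not hold across tests. As CYGB was taken in because it was higher in these same CBX7 libraries, the p-values describe the fits and are not evidence about CYGB. Its adjusted p was 0.183 to 0.224 in edgeR as reported and with the other scalings, the filter of at least 10 counts and the newer method, and 0.066 with the length correction, but 0.000112 in the DESeq2 Wald test, 3.28e-11 with no filter, 2.74e-11 with the replicate block and 1.94e-06 with the block and the length correction. The prior degrees of freedom were 3.61 in the edgeR fit reported and infinite with no filter, with the block and in each fit with a library left out.

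Accordingly 1 redox row, CYGB, passed an adjusted p of 0.05 with no filter, the DESeq2 Wald test, the replicate block and the block with the length correction, and 1 to 28 passed with a library left out, namely 1 without control replicate 1 (0.384% of all genes), 1 without control replicate 2 (0.291%), 3 without CBX7 replicate 1 (2.59%) and 28 without CBX7 replicate 2 (35.5%). At an unadjusted p under 0.05 the count went from 1 to 5 with no filter (5.21% of all genes), 5 with the replicate block (10.2%), 4 with the length correction (6.91%) and 11 with both (13.5%), and 1 to 30 with a library left out (2.47% to 43.0%). Rows above in both CBX7 libraries went from 6 to 12 with the length correction, alone or with the block (18.3% of all genes), and to 6 to 31 with a library left out (22.3% to 43.9%), and rows below from 6 to 7 to 20 (22.5% to 43.3%). The median difference was -0.033 to 0.23 with a library left out, negative only without CBX7 replicate 1. In the wider list the count went from 0 to 1 with the replicate block (BACH2), 4 with the block and the length correction (GGT7, NFE2L3, OPLAH and SLC3A2), and 0 to 45 with a library left out, where 45 of 80 passed without CBX7 replicate 2, 3 without CBX7 replicate 1 and 0 without either control. Over all genes the calls with 4 libraries were 3 in the fit reported, 265 with no filter, 67 with DESeq2, 361 with the block, 4 with the length correction and 549 with both, and with a library left out 59 and 45 (control replicates 1 and 2) and 397 and 5491 (CBX7 replicates 1 and 2). The causes were not tested.

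Of the 44 differences, 33 kept their sign in every fit of all 4 libraries and 11 did not, and 18 kept it with each library left out and 26 did not. Deviations of same-numbered libraries from their group means correlated at 0.294 over all genes tested, but no source says that the number marks a batch, so the replicate block is given here only. With a pseudocount of 0.5 CPM that correlation was 0.385 and the CYGB log2 ratios of same-numbered libraries were 1.97 and 1.99. Counts under about 30, as in GPX3, GSTA4 and the CYGB controls, limit what can be said of those genes.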
